A study of Mus musculus with 6 samples.

Results

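The insulin-like growth factors Igf1 and Igf2, their receptors Igf1r and Igf2r, and the binding proteins Igfbp2, Igfbp3, Igfbp4, Igfbp5, Igfbp6 and Igfbp7 were followed in mouse uterus on a 1-colour Affymetrix array. A probe set, the array's unit of measurement, was taken for these genes when the platform annotation gave it 1 of the 10 symbols and no other. That gave 28 probe sets of 45037 tested, for 10 of 18193 genes with a probe set of their own. All samples were uterine horns, without cervix, of C57BL6J mice. The SF1 group (Pgrcre/+ SF1LsL/+, 3 arrays) carried the SF1LsL transgene together with Cre at the progesterone receptor locus Pgr, by design switching on SF1, the nuclear receptor encoded by Nr5a1, in Pgr-expressing cells. The Control group (SF1LsL/+, 3 arrays) carried the same transgene without Cre, so that Cre, the Pgr allele that holds it and SF1 differ together between the groups. Each array held RNA pooled from 2 uteri. Tissue was taken 2 weeks after a surgery of a kind not given in the sources used here, which name neither the age nor the hormonal state of the mice. The labels describe separate pools and not how they were processed, so p-values measure the spread between these arrays, part of which may be technical.

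Insulin-like growth factors are secreted peptides that signal growth and survival through the receptor tyrosine kinase encoded by Igf1r. Igf2r encodes a receptor that takes up the ligand IGF2 and carries it to lysosomes without growth signalling. The binding proteins hold the ligands outside cells, mostly limiting their access to the receptor, and proteases such as pappalysin release the ligands again. In the mouse uterus Igf1 is known as a stromal gene raised by estrogen, whose product acts on the epithelium.

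The largest differences among the 28 probe sets were those of Igfbp2 and of the Igfbp5 pair, which read in opposite directions. Igfbp2 was 5.02-fold higher in SF1 uteri on the log2(value + 16) scale, the brighter Igfbp5 probe set was 1.83-fold higher, and Igf1r was lower on its brightest pair of probe sets, at 0.741-fold and 0.69-fold. Igf1 was higher on 1 of its 4 probe sets, at 1.25-fold. Igf2, Igf2r, Igfbp3, Igfbp4, Igfbp6 and Igfbp7 had no probe set that passed the test. A probe set was called at an adjusted p under 0.05 by limma, a linear model across all probe sets, with Benjamini-Hochberg adjustment. Of the 28 probe sets, 3 were called higher and 2 lower, and 23 were not called. Over all probe sets 14% were called, 5.88% higher and 8.08% lower. With 1 probe set a gene, its brightest, 2 of the 10 genes were called higher (Igfbp2 and Igfbp5) and 1 lower (Igf1r), against 8.37% higher and 8.11% lower of all genes. On its other probe set Igfbp5 read lower and was not called (log2 change -0.83, limma adjusted p = 0.243). Rises made up 42.1% of all calls without rescaling, 52.1% once arrays were quantile normalized and 56.5% once they were centred on their medians. The brightest probe sets of Igfbp2, Igfbp5 and Igf1r kept their directions and calls in all of these scalings. In 13 of the 28 probe sets the SF1 and Control arrays did not overlap, and the same held for 36.7% of all probe sets. By gene it held for 6 of the 10 and for 39.9% of all genes. The median log2 change was -0.10 over the 28 and -0.07 over all probe sets.

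**Figure D1:**
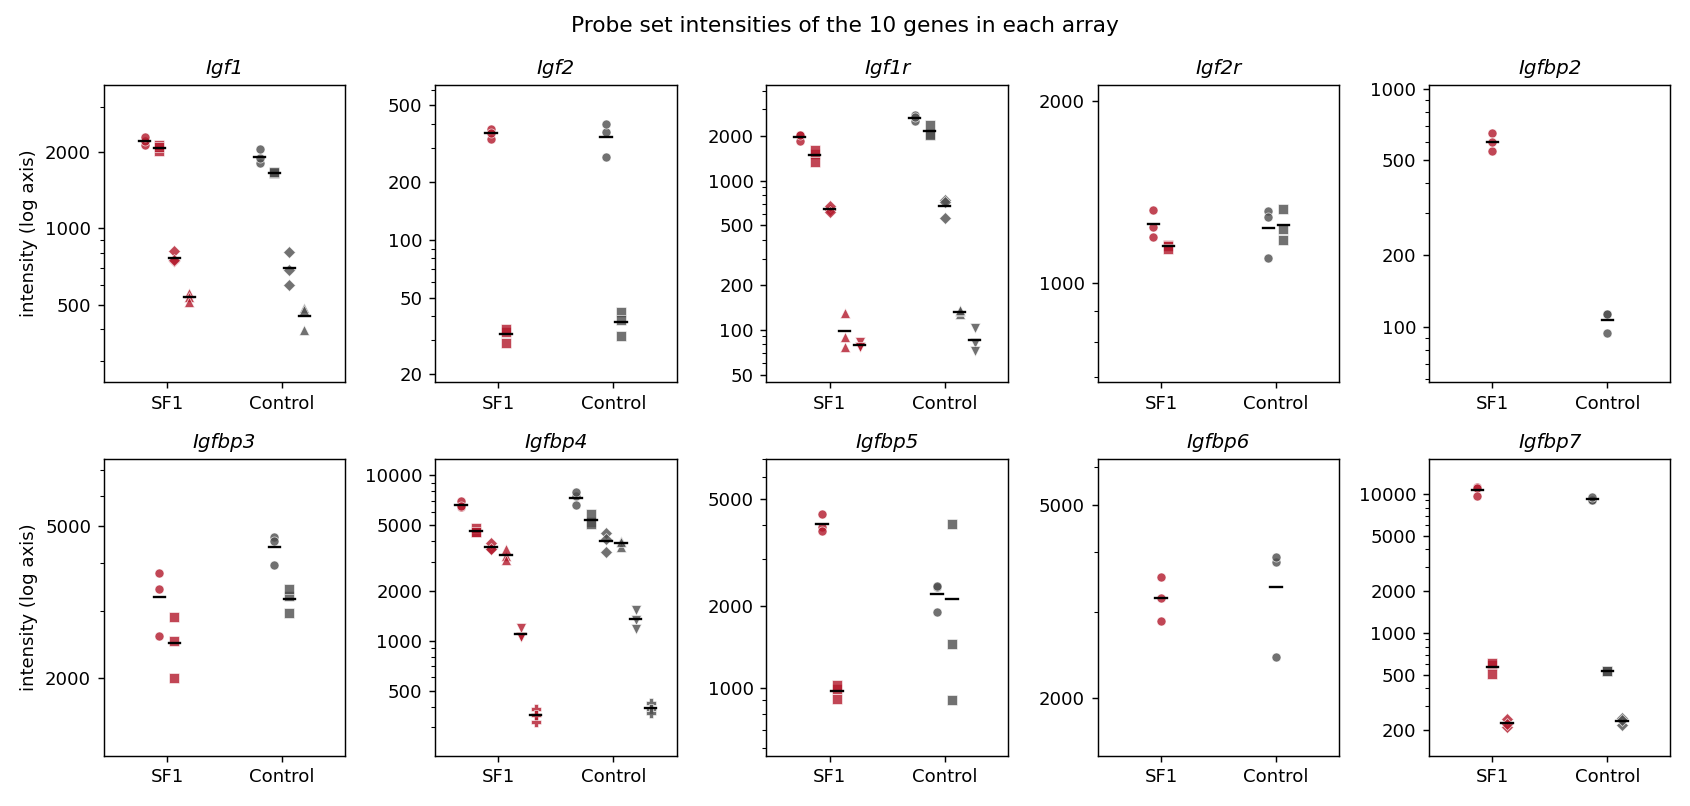
Intensity (log axis, in the units of the deposited table) of every probe set of the 10 genes in the 3 SF1 arrays (red, left) and 3 Control arrays (grey, right); each symbol shape within a panel is 1 probe set, from the brightest at the left, and the black bar is the mean of 3 arrays. Igfbp2 lay between 548 and 649 in SF1 and between 93.7 and 113 in Control, and the dimmer Igfbp5 probe set (squares) had 1 Control array at 4041.

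The arrays were alike in scale, with median intensities from 149.9 to 159.6 in SF1 and from 159.0 to 162.2 in Control, and Control replicate 2 had the lowest mean correlation with its own group (0.9888, where the other 5 arrays lay between 0.9908 and 0.9925). As a check on RNA quality, signal at the 3' end of beta-actin over that at its 5' end averaged 2.194 ± 0.1225 in SF1 and 2.508 ± 0.1072 in Control (SD, n = 3 each; two-sided exact permutation p = 0.1, and no smaller p is possible with 3 against 3 arrays). The beta-actin ratios of the SF1 arrays (2.336, 2.131 and 2.116) were all below those of the Control arrays (2.58, 2.559 and 2.385). For Gapdh the ratio averaged 1.541 ± 0.1038 in SF1 and 1.624 ± 0.0877 in Control, and the groups overlapped (exact permutation p = 0.3). Whether this difference in RNA quality bears on the results was not tested. The brighter Nr5a1 probe set had 151.26, 151.2 and 151.45 in SF1 and 138.76, 171.51 and 144.8 in Control; whether it covers the transgene is not known here, so it is no check of the genotypes. Pgr had 1932, 1719 and 2027 in SF1 and 4899, 4747 and 4744 in Control (log2 change -1.34 ± 0.09, SE; limma adjusted p = 3.2e-05).

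Cell type markers moved between the groups as well, and their part in the results on growth factor genes was not tested. In bulk tissue, fewer cells of a type and less RNA per cell cannot be told apart. Over all genes 8.37% were called higher and 8.11% lower. Of the uterine identity genes, 6 of 8 were called lower (Pgr, Hoxa10, Hoxa11, Hoxd10, Wnt7a and Msx1), the lowest value in any array being 122, and their summed intensity was 14710 to 15760 in SF1 and 23770 to 24580 in Control. Pgr, part of this sum, is the locus that holds Cre in the SF1 group, so its fall cannot be told apart from that allele. Endometrial stroma markers were lower for 6 of 10 (Hand2, Nr2f2, Pdgfra, Dcn, Twist2 and Wnt5a), with a sum of 40380 to 40910 in SF1 and 50240 to 51750 in Control. The stroma markers Vim, Lum, Col1a1 and Col6a3 overlapped between the groups and were not called (log2 changes -0.02, 0.057, 0.047 and -0.075). Endothelial markers were lower for 7 of 8 (3520 to 3988 in SF1, 5468 to 5861 in Control). Epithelial markers were higher for 4 of 7 and lower for 1 (16900 to 18590 in SF1, 14500 to 15640 in Control), and macrophage markers were higher for 7 of 8 (8307 to 10430 in SF1, 4057 to 6324 in Control). No smooth muscle marker of 8 was called (37990 to 40120 in SF1, 35840 to 38600 in Control). Fat cell markers were lower for 2 of 6 and uneven among SF1 arrays (10110, 7048 and 2431 in SF1 replicates 1 to 3, 9086 to 14390 in Control). Ovary and oviduct markers were higher for 2 of 7 and lower for 1 (1702 to 1830 in SF1, 1091 to 1261 in Control). Of these, Star, a gene of steroid hormone synthesis, was 6.49-fold higher (limma adjusted p = 4.84e-06). Star had 912, 863 and 720 in SF1 and 117, 124 and 102 in Control, and the higher sum of the list came mainly from it. Inha, which encodes an inhibin subunit, was 1.72-fold higher (adjusted p = 0.000505) and Ovgp1 was lower (0.602-fold, adjusted p = 0.00888). Amh, Fshr, Zp3 and Gdf9 were not called. No marker of these lists was at 0 in any array.

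Igfbp2, whose product binds both ligands, had 649, 548 and 599 intensity units in the SF1 arrays and 93.7, 113 and 113 in the Control arrays. Every SF1 array lay far above every Control array, with a gap many times the spread within either group. The log2 change was 2.33 ± 0.10 (SE, 95% interval 2.10 to 2.55; limma adjusted p = 5.2e-06), on the only probe set of the gene. It lay between 2.25 and 2.39 with any 1 array left out. The size depends on the pseudocount, at 2.48 with 1 and 1.96 with 64 in place of 16.

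Igfbp5, whose product binds to the extracellular matrix as well as to the ligands, gave opposite readings on its probe sets. The brighter one, 1452114_s_at, had 4398, 3947 and 3812 in SF1 and 2365, 1907 and 2378 in Control (log2 change 0.87 ± 0.11, SE; limma adjusted p = 0.00109). Every SF1 array was above every Control array, and the change was 0.77 to 0.92 with any 1 array left out. The other, 1422313_a_at, had 906, 994 and 1025 in SF1 and 1454, 4041 and 898 in Control (log2 change -0.83 ± 0.44; adjusted p = 0.243). Its groups overlapped and its Control spread came mainly from replicate 2. Without Control replicate 2 its log2 change was -0.23 (adjusted p = 0.455), and without Control replicate 3 it was -1.30 (adjusted p = 0.0622). On this platform the suffix _s_at marks probe sets that can bind transcripts of more than 1 gene, and _a_at those that bind several transcripts of the same gene. With the mean of both probe sets in place of the brighter, Igfbp5 was not called (log2 change 0.02 ± 0.20; adjusted p = 0.957), and Igfbp2 alone of the 10 genes was called higher. The call on Igfbp5 thus rests on 1 of its 2 probe sets.

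Igfbp2 and Igfbp5 are neighbours on chromosome 1, on opposite strands, with 0 annotated genes between them in the GRCm38.p6 gene table. Igfbp1 and Igfbp3 are likewise neighbours on chromosome 11. Igfbp1, outside the 10 genes and dim here, had 53.9, 47.3 and 43.6 in SF1 and 49.8, 48.1 and 60.1 in Control (log2 change -0.10 ± 0.10; adjusted p = 0.552). The 250 bases before the RefSeq start of the genes called by their brightest probe set are shown because the transgene encodes a DNA-binding receptor and Pgr itself was lower. They are from build GRCm38.p6, at chr1:72824230-72824479 on the + strand for Igfbp2, chr1:72874866-72875115 on the - strand for Igfbp5 and chr7:67952007-67952256 on the + strand for Igf1r, with motif matches in capitals.
Igfbp2: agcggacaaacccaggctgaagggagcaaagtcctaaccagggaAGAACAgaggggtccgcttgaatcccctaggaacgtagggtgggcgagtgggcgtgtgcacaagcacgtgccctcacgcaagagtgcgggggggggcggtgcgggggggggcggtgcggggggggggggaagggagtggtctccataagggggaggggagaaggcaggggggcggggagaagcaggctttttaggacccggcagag
Igfbp5: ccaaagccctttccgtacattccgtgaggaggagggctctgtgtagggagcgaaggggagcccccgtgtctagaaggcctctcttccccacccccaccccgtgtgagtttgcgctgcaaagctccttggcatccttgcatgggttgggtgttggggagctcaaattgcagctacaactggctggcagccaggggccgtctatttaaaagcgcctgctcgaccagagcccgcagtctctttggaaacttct
Igf1r: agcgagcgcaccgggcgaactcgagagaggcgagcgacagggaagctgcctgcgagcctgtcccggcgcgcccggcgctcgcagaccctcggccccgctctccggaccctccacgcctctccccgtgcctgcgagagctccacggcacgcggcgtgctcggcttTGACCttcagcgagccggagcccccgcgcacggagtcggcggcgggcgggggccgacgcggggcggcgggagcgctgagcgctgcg
The motifs searched, on both strands, were the SF-1 element CAAGGTCA or CAAGGCCA, the core TGTTCT of progesterone receptor sites and the core TGACC of estrogen receptor sites. CAAGGTCA always holds a match to TGACC on the other strand. RefSeq gave all 10 genes at least 1 start, 14 windows in all, and the SF-1 element was in 0 of the 14, against 3.28% of 32851 windows of the same length over all genes. The Igfbp2 window shown had 1 match to TGTTCT (printed as AGAACA, its other strand), found in 16.1% of all windows. The window of its other start, not shown, had no match to TGTTCT and 1 match to TGACC. The Igf1r window had 1 match to TGACC, found in 35.2% of all windows, and the Igfbp5 window had no match to any of the motifs. These matches describe letters in short windows and are no evidence of binding or of its absence.

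Igfbp3, the main carrier of the ligands in blood, had 3764, 2577 and 3410 in SF1 and 3946, 4684 and 4560 in Control on its brighter probe set. On the other it had 2895, 2004 and 2504 in SF1 and 2957, 3273 and 3408 in Control. On both, every SF1 array was below every Control array and SF1 replicate 2 was the lowest. Neither passed the test, with log2 changes of -0.45 ± 0.14 (SE; limma adjusted p = 0.0712) and -0.39 ± 0.13 (adjusted p = 0.0869). After quantile normalization the brighter one passed (-0.51, adjusted p = 0.0433), and without SF1 replicate 1 the other did (-0.52, adjusted p = 0.0446). Without SF1 replicate 2, the lowest array, the changes shrank to -0.29 (adjusted p = 0.146) and -0.25 (adjusted p = 0.191).

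Igfbp4, which encodes a binding protein that inhibits ligand action and is the best known substrate of pappalysin, had 6 probe sets. All 6 read lower in SF1, with log2 changes from -0.11 to -0.28, and none was called (limma adjusted p from 0.103 to 0.502). The brightest had 6408, 6955 and 6485 in SF1 and 7507, 7863 and 6581 in Control, so that the groups overlapped. Other settings moved single probe sets past the threshold: 1437406_x_at was called after quantile normalization (-0.30, adjusted p = 0.0427), and it and 1423757_x_at were called with a trended, robust variance model (-0.22 and -0.24, adjusted p = 0.0404 and 0.0385). With any 1 array left out none was called, and the changes lay between -0.37 and -0.03, the smallest being that of 1423756_s_at without Control replicate 1.

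Igfbp6, whose product prefers IGF2, had 3216, 2883 and 3544 in SF1 and 3818, 2425 and 3901 in Control (log2 change -0.05 ± 0.18, 95% interval -0.45 to 0.36; limma adjusted p = 0.885). Control replicate 2 was below all SF1 arrays and the other Control arrays were above them. The sign of this small difference turned after median centring (0.01). Igfbp7, which encodes a matrix protein with weak affinity for the ligands, had 11234, 11037 and 9651 in SF1 and 9091, 9094 and 9559 in Control on its brightest probe set. Its SF1 arrays were all higher, though the difference did not pass the test (0.20 ± 0.09; adjusted p = 0.161), and its dimmer probe sets gave 0.08 (adjusted p = 0.594) and -0.06 (adjusted p = 0.688).

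**Figure D2:**
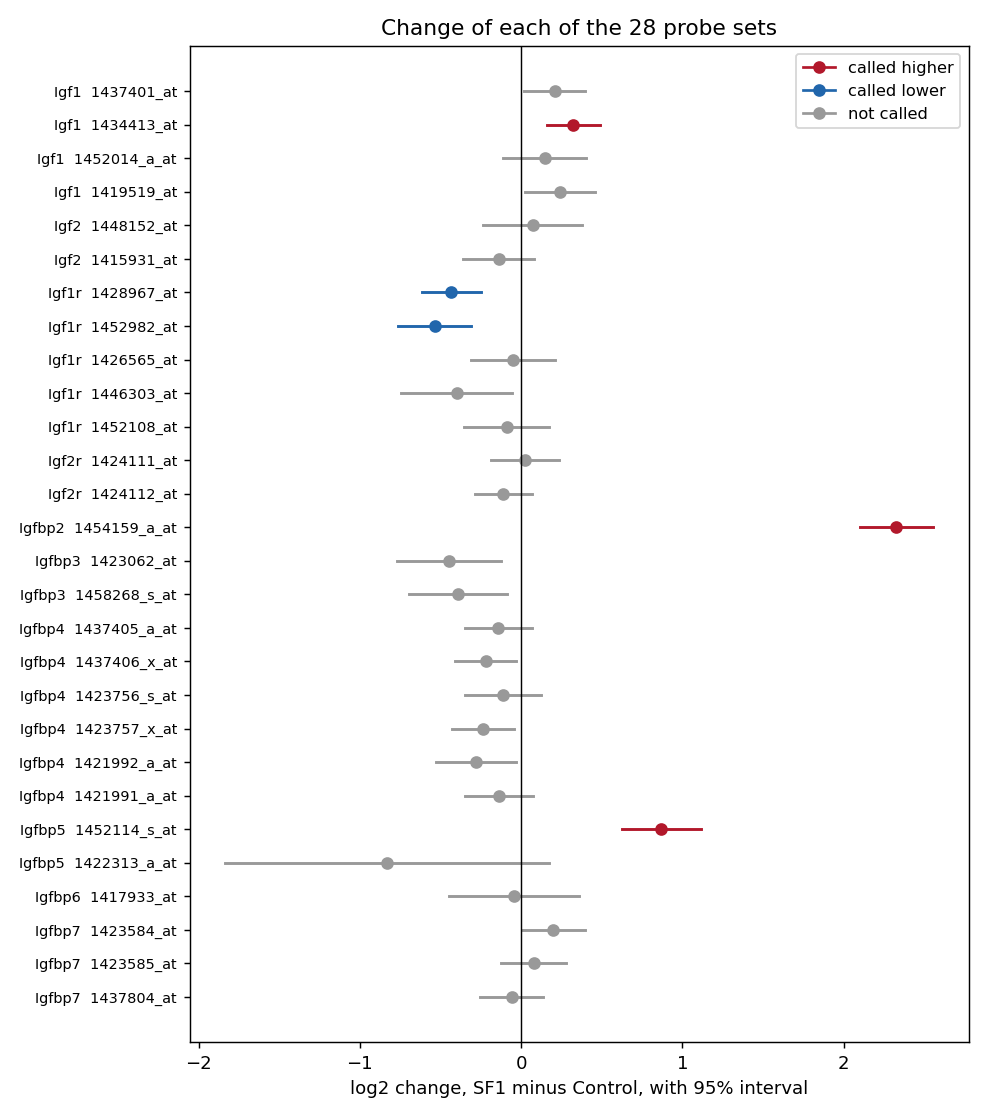
Log2 change, SF1 minus Control, of each of the 28 probe sets (points) with its 95% interval from limma (bars); red is called higher, blue called lower and grey not called, and genes run from ligands and receptors to binding proteins. Igfbp2 stands at 2.33, the pair of Igfbp5 probe sets lies at 0.87 and -0.83, and the other 25 probe sets lie between -0.54 and 0.32.

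Among the ligands, Igf1 read higher in SF1 on all 4 probe sets, with log2 changes from 0.15 to 0.32, of which 1 passed. That one, 1434413_at, had 2009, 2137 and 2087 in SF1 and 1651, 1655 and 1662 in Control, with very little spread within Control (log2 change 0.32 ± 0.07, SE, 95% interval 0.16 to 0.49; limma adjusted p = 0.0194). The call was lost without Control replicate 1 (adjusted p = 0.0642), SF1 replicate 2 (0.0657) or SF1 replicate 3 (0.0614), while the change stayed between 0.30 and 0.35 with any 1 array left out. The brightest, 1437401_at, had 2132, 2207 and 2296 in SF1 and 1802, 1888 and 2057 in Control (0.21 ± 0.08; adjusted p = 0.133). Its groups did not overlap either. The remaining pair, 1419519_at and 1452014_a_at, shrank without Control replicate 2, to 0.15 (adjusted p = 0.313) and 0.04 (adjusted p = 0.824), against 0.24 and 0.15 with all arrays. With all 4 probe sets averaged, Igf1 stood at 0.23 ± 0.07 and was not called (adjusted p = 0.0604). Igf2, an imprinted gene of fetal growth, had 335, 379 and 361 in SF1 and 363, 270 and 399 in Control on its brighter probe set. The groups overlapped (0.07 ± 0.14, 95% interval -0.24 to 0.38; adjusted p = 0.754), and the sign turned without Control replicate 2 (-0.09). Its dim probe set had 33.2, 34.4 and 29.1 in SF1 and 42.2, 38.3 and 31.4 in Control (-0.14 ± 0.10; adjusted p = 0.367).

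Igf1r, the signalling receptor, had 5 probe sets, of which the brightest pair fell. The brightest, 1428967_at, had 2027, 1834 and 2012 in SF1 and 2507, 2740 and 2690 in Control (log2 change -0.43 ± 0.08, SE; limma adjusted p = 0.00898). The next, 1452982_at, had 1503, 1329 and 1600 in SF1 and 2055, 2351 and 2037 in Control (-0.54 ± 0.10; adjusted p = 0.00824). All SF1 arrays were below all Control arrays on both, and both calls held with any 1 array left out (highest adjusted p = 0.0357 and 0.0301). A fold of at least 1.5 was reached by neither. The other probe sets were not called: 1426565_at stood at -0.05 ± 0.11 (adjusted p = 0.785) and 1452108_at at -0.09 ± 0.11 (adjusted p = 0.637). The fifth, 1446303_at, had 76.3, 89.1 and 129 in SF1 and 127, 134 and 135 in Control (-0.40 ± 0.15; adjusted p = 0.118), and it was called without SF1 replicate 3, its highest SF1 array (-0.59, adjusted p = 0.00975). Without SF1 replicate 1, its lowest, the change was -0.26 (adjusted p = 0.313). With all 5 averaged, Igf1r was lower (-0.30 ± 0.07; adjusted p = 0.017). Igf2r had 1321, 1194 and 1240 in SF1 and 1315, 1100 and 1286 in Control on its brighter probe set, which overlapped (0.02 ± 0.09, 95% interval -0.19 to 0.24; adjusted p = 0.888). Its other probe set had 1158, 1155 and 1140 in SF1 and 1228, 1182 and 1330 in Control, without overlap and not called (-0.11 ± 0.08; adjusted p = 0.367).

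With clone and predicted gene names passed over, the genes most like Igfbp2 over the 6 arrays were Coq4 (Pearson r = 0.9994), Crip3 (0.9987) and Idh1 (0.9987). Those most like Igf1r were Zfp532 (0.9983), Atg14 (0.9983) and Lama2 (0.9974). These points share the division into 2 groups: of 18183 other genes, 831 had an r over 0.95 with Igfbp2 and 782 with Igf1r, so the ranking describes these arrays and no more. The sizes differed, at a log2 change of 0.40 for Coq4, 1.41 for Crip3 and 1.05 for Idh1, beside 2.33 for Igfbp2.

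Beyond the 10 genes, more pathway genes were called lower than higher. Of 57 further pathway genes measured, 5 were called higher and 11 lower and 41 were not called. That is 28.1% called, where 16.5% of all genes were, and the median log2 change was -0.06 over the list and -0.05 over all genes. The list was chosen with earlier results of these data known, so these shares are no independent test of the pathway. The counts depend on single arrays. Only 1 was called higher and 6 lower without Control replicate 1, 7 were lower without Control replicate 2, and 2 were higher without Control replicate 3 or without SF1 replicate 1.

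A list of protease genes and genes for protease inhibitors held the most calls, with 2 of 18 higher, 6 lower and 10 not called (median log2 change -0.16). It holds proprotein convertase genes as well as genes for proteases that cut binding proteins. Called genes made up 44.4% of it and 16.5% of all genes. Pappa, which encodes pappalysin, the protease that frees the ligands from IGFBP4 and IGFBP5, had 253, 214 and 318 in SF1 and 701, 786 and 660 in Control. Every SF1 array was under the lowest Control array by a wide margin (log2 change -1.41 ± 0.14, SE; limma adjusted p = 0.000275). Another Pappa probe set was lower too (-1.12, adjusted p = 0.00181), and the remaining one was not called (-0.23, adjusted p = 0.0855). Stc1, whose product stanniocalcin is an inhibitor of pappalysin, had 238, 293 and 276 in SF1 and 601, 580 and 494 in Control (-1.01 ± 0.11; adjusted p = 0.000463). Its dimmer probe set overlapped between the groups and was not called (-0.39, adjusted p = 0.186). Stc2, which encodes the related inhibitor, was not called on its brightest probe set (-0.04, adjusted p = 0.9), was higher on 1449484_at (0.31, adjusted p = 0.0369) and was not called on 1419503_at (0.18, adjusted p = 0.14). Mmp2, a matrix metalloproteinase gene, averaged 2698 ± 244.7 in SF1 and 4887 ± 449.2 in Control (SD, n = 3 each; -0.85 ± 0.10, SE; limma adjusted p = 0.000803). Pcsk6, a gene for a proprotein convertase, had 346, 330 and 337 in SF1 and 154, 147 and 173 in Control (1.02 ± 0.08; adjusted p = 0.000108). Timp1, which encodes an inhibitor of matrix metalloproteinases, was uneven among SF1 arrays, at 442, 1094 and 193, against 125, 101 and 132 in Control. Its change of 1.82 ± 0.49 (adjusted p = 0.0407) was 1.20 with SF1 replicate 2 left out and 2.41 with SF1 replicate 3 left out, and it was no longer called without any 1 Control array or SF1 replicate 1 (highest adjusted p = 0.107). The call also ended with a pseudocount of 1 (adjusted p = 0.0608), array weights (0.0587) and trended robust variances (0.165).

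**Figure D3:**
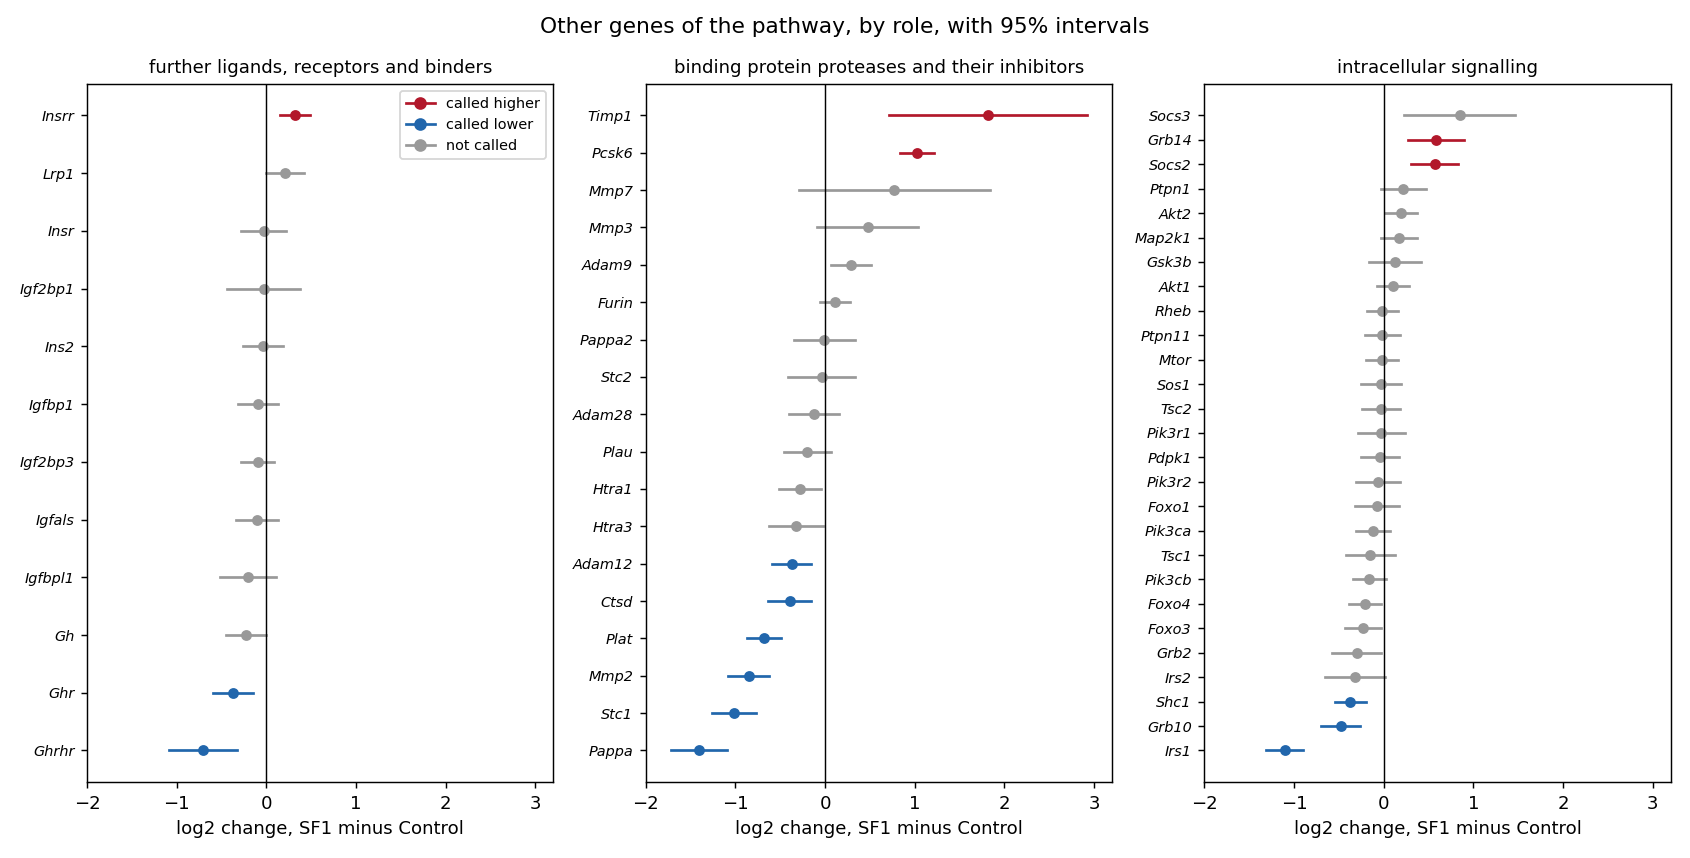
Log2 change, SF1 minus Control, of the 57 further pathway genes, 1 probe set a gene, with 95% intervals from limma (bars). The panels hold 12 ligand, receptor and binder genes (the RNA binders Igf2bp1 and Igf2bp3 among them), 18 protease and inhibitor genes and 27 intracellular signalling genes. Red is called higher, blue called lower and grey not called. Pappa, Irs1 and Stc1 lie at -1.41, -1.11 and -1.01, and most signalling genes lie near 0.

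Inside the cell, 2 of 27 signalling genes were called higher, 3 lower and 22 not called (median log2 change -0.03). Their share of 18.5% called was near the 16.5% of all genes. Irs1, the docking protein that carries the receptor's signal to PI3-kinase, had 1866, 1630 and 1909 in SF1 and 4077, 3688 and 3899 in Control. The SF1 arrays were all well below the Control arrays (log2 change -1.11 ± 0.09, SE; limma adjusted p = 0.000109). Its relative Irs2 had 377, 312 and 478 in SF1 and 430, 519 and 501 in Control, where the groups overlapped (-0.32 ± 0.15; adjusted p = 0.189). The difference between Irs1 and Irs2 was not tested. Grb10, an adaptor gene whose product dampens insulin and IGF1 receptor signalling, averaged 1513 ± 145.2 in SF1 and 2112 ± 140.5 in Control (SD, n = 3 each; -0.48 ± 0.10, SE; limma adjusted p = 0.0122). Grb14, its relative, had 775, 616 and 749 in SF1 and 416, 570 and 429 in Control (0.59 ± 0.14; adjusted p = 0.0242). The related adaptor genes Grb10 and Grb14 were therefore called in opposite directions. Shc1, an adaptor gene on the way to Ras, was lower (-0.37 ± 0.07; adjusted p = 0.0122). Socs2, a feedback inhibitor gene of growth hormone signalling, was higher (0.57 ± 0.12; adjusted p = 0.0125). These calls are on the brightest probe sets. Leaving out replicate 1 or 3 of either group ended that of Grb14 (highest adjusted p = 0.091), and leaving out Control replicate 1 ended those of Socs2 and Grb10 (adjusted p = 0.0514 and 0.0515). The dimmer probe sets of Shc1 (-0.28, adjusted p = 0.123) and Grb14 (0.22, adjusted p = 0.22) were not called. Socs2 was also higher on 1418507_s_at (0.61, adjusted p = 0.0154) and not called on its others. Grb10 was also lower on 1430164_a_at (-0.51, adjusted p = 0.0134) and not called on 1425457_a_at (-0.18, adjusted p = 0.191).

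Of the 12 further ligand, receptor and binder genes measured, 1 was called higher and 2 lower, and 9 were not called (median log2 change -0.10). Called genes made up 25% of this list and 16.5% of all genes. The list also holds Igf2bp1 and Igf2bp3, whose products bind RNA and not the growth factors, and neither was called. Insr, the insulin receptor gene, had 1012, 852 and 956 in SF1 and 1081, 837 and 974 in Control (-0.03 ± 0.11, 95% interval -0.29 to 0.22; limma adjusted p = 0.873). Its groups overlapped and the sign turned after median centring (0.02). Ghr, the growth hormone receptor gene, had 2132, 1698 and 1758 in SF1 and 2336, 2489 and 2398 in Control (-0.37 ± 0.10; adjusted p = 0.0408). Ghrhr, a receptor gene of the pituitary axis, had 107, 177 and 160 in SF1 and 256, 274 and 214 in Control (-0.71 ± 0.17; adjusted p = 0.0256). Insrr, the insulin receptor-related receptor gene, had 66.3, 65.7 and 67.2 in SF1 and 51.0, 52.4 and 47.4 in Control (0.31 ± 0.07; adjusted p = 0.024). Each of these 3 calls ended in some refits. The call of Ghr ended with any 1 Control array left out, or SF1 replicate 2 or 3 (highest adjusted p = 0.121), after median centring (0.098) and with a pseudocount of 1 (0.0606), and its dimmer probe sets were not called (-0.45 and -0.12, adjusted p = 0.128 and 0.362). That of Insrr ended with Control replicate 1 or 3 or any SF1 array left out (highest 0.0732), its size being 0.19 with a pseudocount of 64, and that of Ghrhr with Control replicate 1 or 2 left out (highest 0.0796).

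**Figure D4:**
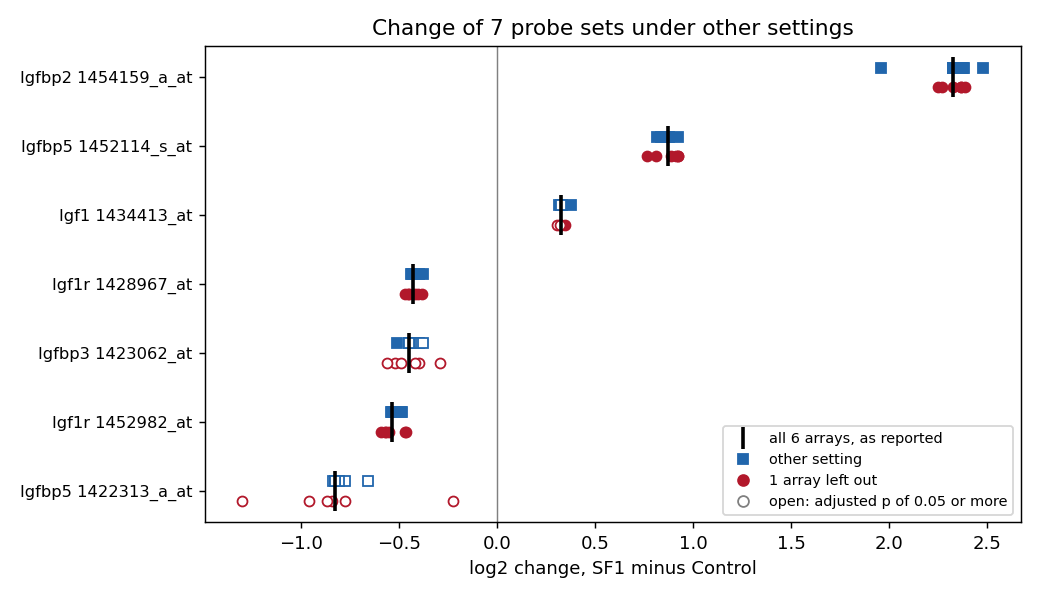
Log2 change, SF1 minus Control, of 7 probe sets with all 6 arrays (black line), with 1 array left out (circles) and under 8 other scalings, filters, pseudocounts and variance models (squares); open symbols have a limma adjusted p of 0.05 or more. Igfbp2, the brighter Igfbp5 probe set and the pair of Igf1r probe sets stay filled throughout, while the dimmer Igfbp5 probe set ranges from -1.30 to -0.23.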

How the data were processed

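The deposited table holds probe set intensities on a linear scale, in 6 columns, 1 per array (GeneChip Mouse Genome 430 2.0, biotin-labelled total RNA, per the labels). How the authors corrected background, scaled arrays and summarized probes is not stated in the labels; dim values depend on it most. The table lists 45101 probe sets, of which 64 Affymetrix controls stayed out of the fit. Gene names came from a platform annotation, which gave 34945 probe sets 1 symbol, 932 several and 9160 none. All 10 genes matched the GRCm38.p6 table, from which promoter sequences (RefSeq) were taken.

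The limma package, version 3.58.1 under R 4.3.3, was run (lmFit, eBayes) on log2(value + 16), two-sided, with Benjamini-Hochberg adjustment over 45037 probe sets and calls at an adjusted p under 0.05. Every adjusted p in the text comes from limma. Fold changes on this scale understate dim genes. The probe set of highest mean log2 value stood for its gene. Tables and plots used Python 3.11.15, pandas 2.3.3 and matplotlib 3.10.9.

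Genes, pathway lists and markers were chosen with earlier results of these data known. Named beyond the 10 genes were up to 3 risen and 3 fallen called genes of each pathway list, and Insr, Irs1, Irs2, Pappa, Ghr, Nr5a1 and Pgr; Igfbp1, as the neighbour of Igfbp3, Stc2 and the markers Star, Inha, Ovgp1 and Amh were added after their values were seen. Of 68 pathway entries, 57 had a probe set with that symbol alone, and the rest were not analysed here. Genes most like Igfbp2 and Igf1r, the called genes with the largest rise and fall, were the 3 with the highest Pearson r. Precision is limited by 3 arrays a group: the median SD of log2 values was 0.1 in SF1 and 0.108 in Control. Alternatives tried were a filter to brighter probe sets, quantile normalization, median centring, pseudocounts of 1 and 64, the replicate number as a block, trended robust variances, array weights, each array left out, a stricter adjusted p, an added fold of 1.5 and probe sets averaged by gene. For genes outside the 10, alternatives were added after seeing the data.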

Additional observations from a re-analysis of the deposited data

How the results depend on the processing

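Igfbp2, the brighter Igfbp5 probe set and the brightest pair of Igf1r probe sets kept their direction and their call in all 14 refits. The number of the 28 probe sets called lower was 4 after quantile normalization and 4 with trended robust variances, against 2, and 0 with an added fold of 1.5. By gene, 2 were lower after quantile normalization and 0 with the added fold, against 1, and 1 was higher with probe sets averaged by gene, against 2. Of all probe sets, 6291 were called, 4095 with the replicate block, 2975 at an adjusted p under 0.01 and 2365 with the added fold. Of further pathway genes, 2 were higher with the replicate block, 1 higher and 5 lower at an adjusted p under 0.01, and 3 higher and 6 lower with the added fold, against 5 and 11.

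Leaving out 1 array gave 3771 (SF1 replicate 1) to 4761 called probe sets, with 4150 for Control replicate 1, 2 to 3 of the 28 higher and 2 to 3 lower, and 1 to 5 pathway genes higher and 6 to 10 lower. The labels do not say that replicate numbers pair the pools. Same-numbered deviations had correlations of -0.06, -0.10 and -0.18, and 0 of 6 arrays correlated best with their own number. With 3 arrays a group these values cannot exclude pairing. With the replicate block, Igf1 1434413_at kept its log2 change of 0.32 but not its call (adjusted p = 0.0677), and the calls of Ghr (0.0882), Insrr (0.0779), Timp1 (0.0547) and Grb14 (0.0705) ended too. Signs turned for differences that were never called. After median centring Igfbp6 stood at 0.006 and Insr at 0.02, and with array weights Igf2r stood at -0.017. With 1 array left out, Igfbp6 ranged from -0.268 to 0.073, Igf1r 1426565_at from -0.178 to 0.019, Igf1r 1452108_at from -0.191 to 0.032, Igf2 1448152_at from -0.085 to 0.183, Igf2r 1424111_at from -0.056 to 0.071, Insr from -0.128 to 0.054 and Nr5a1 from -0.054 to 0.085. The causes were not tested. The filter to brighter probe sets leaves out the dimmest pair of Igf1r probe sets and the dimmer Igf2 one.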
